A study of Mus musculus with 2 samples.

Results

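The venular blood endothelial cells (BECs) of 2 mouse tumors are described here: 693 of the 17556 BECs that passed a gate on deposited UMI counts, among 22700 barcodes in all. A cell was placed in the BEC gate when it had at least 500 detected genes, under 10% mitochondrial UMIs, a sum of Pecam1, Cdh5 and Egfl7 of at least 2 UMIs and a sum of Ptprc, Col1a2, Epcam, Mmrn1 and Notch3 of at most 1. It was called venular when it also carried at least 3 UMIs of Ackr1 and Selp together, at most 1 UMI of the artery genes Gja5, Sema3g and Fbln5, and at most 1 UMI of the cycling genes Top2a and Mki67. KPC tumors gave 453 venular cells of 7204 gated BECs and PyMT tumors gave 240 of 10352. Ackr1 encodes the atypical chemokine receptor of venules and Selp encodes P-selectin, and because both chose the cells their levels are not results. The same cells supplied every value given here, so all differences between venular and other gated cells are descriptions and carry no test.

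The KPC line is a pancreatic cancer line from mice with p48-Cre and mutant p53, and the PyMT line comes from mammary tumors of MMTV-PyMT mice. Wild-type female C57BL6 mice aged 6 weeks received 100000 cells of either line orthotopically, with no other treatment, and the tumors were collected after 10 days. Tumors were dissociated with collagenase D at 500 U/mL for KPC and 400 U/mL for PyMT, cells carrying CD45, EpCAM, Ter119, podoplanin or Annexin V were depleted, and BECs were sorted and their transcripts counted cell by cell in droplets. Each tumor model had 1 library from a number of mice that the sources used here do not state, so tumor type, digestion and library cannot be told apart. The sources name both v2 and v3 10x chemistry.

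Venules collect blood from capillaries and are the main site at which leukocytes leave the circulation. Their endothelium stores P-selectin and von Willebrand factor in Weibel-Palade bodies, and after stimulation by cytokines it displays E-selectin, ICAM1 and VCAM1 so that leukocytes roll, arrest and cross. Venous identity rests on the nuclear receptor COUP-TFII, the product of Nr2f2, which opposes Notch signaling and the artery program. In lymphoid tissue, high endothelial venules (HEVs) go further and present sulfated, fucosylated glycoproteins and homeostatic chemokines to lymphocytes.

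Each transcript caught in a droplet carries a unique molecular identifier (UMI). Levels are given as CPM, the UMIs of a gene summed over a group of cells, as a share of all UMIs of that group scaled to 1000000. Ratios are log2 ratios of these levels with 95% intervals, which follow each ratio in parentheses and cover counting error only, not the spread between mice. The KPC library held 44441942 UMIs and the PyMT library 55547926. Venular cells had a median of 3625 UMIs in KPC and 3150.5 in PyMT, and the other gated cells 2878 and 4017.5, so venular cells were the deeper group in KPC and the shallower one in PyMT. The 2 libraries shared 170 barcodes, none of them among the venular cells. UMIs of Ackr1 and Selp ranged from 3 to 50 per venular cell in KPC with a median of 6, and from 3 to 25 in PyMT with a median of 4.

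Venular cells made up 6.29% of gated BECs in KPC (Clopper-Pearson interval 5.74 to 6.87) and 2.32% in PyMT (2.04 to 2.63). Without the artery and cycling limits, 632 KPC and 350 PyMT cells of the gate reached the marker threshold, of which 101 and 69 were lost to the artery limit and 78 and 41 to the cycling limit. Depth bears on such a share, and after thinning each cell to 2000 UMIs before the gates, which leaves out shallower cells, the shares were 5.56% and 1.31%. The sort can set these shares and the digestion differed between the tumors, and their part was not tested.

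Of 11209 genes with at least 50 UMIs over the KPC gate, 263 (2.35%) were 2-fold or more higher in venular cells and 1061 (9.47%) were 2-fold or more lower, 129 of them without any UMI in venular cells. In PyMT 725 of 11358 genes (6.38%) were higher and 1081 (9.52%) lower, 353 of them without a venular UMI. Every count for a gene list given below is to be set beside these shares of all genes. The PyMT count rests in part on single cells: with the cell richest in each gene left out on both sides, 475 genes (4.18%) were higher in PyMT and 217 (1.94%) in KPC. Among 10817 genes measured in both libraries, 150 were higher in both, which is 63.3% of the KPC set and 23.3% of the PyMT set. For genes lower in both the number was 371, or 45.9% and 41.8% of the 2 sets. Opposite directions past 2-fold in both libraries were seen for 59 genes, 14 of them higher in KPC and 45 higher in PyMT. Of the same 10817 genes, 237 were higher and 808 lower in KPC, and 643 were higher and 888 lower in PyMT. Whether 59 is more than unrelated sets of these sizes would share was not tested.

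**Figure D1:**
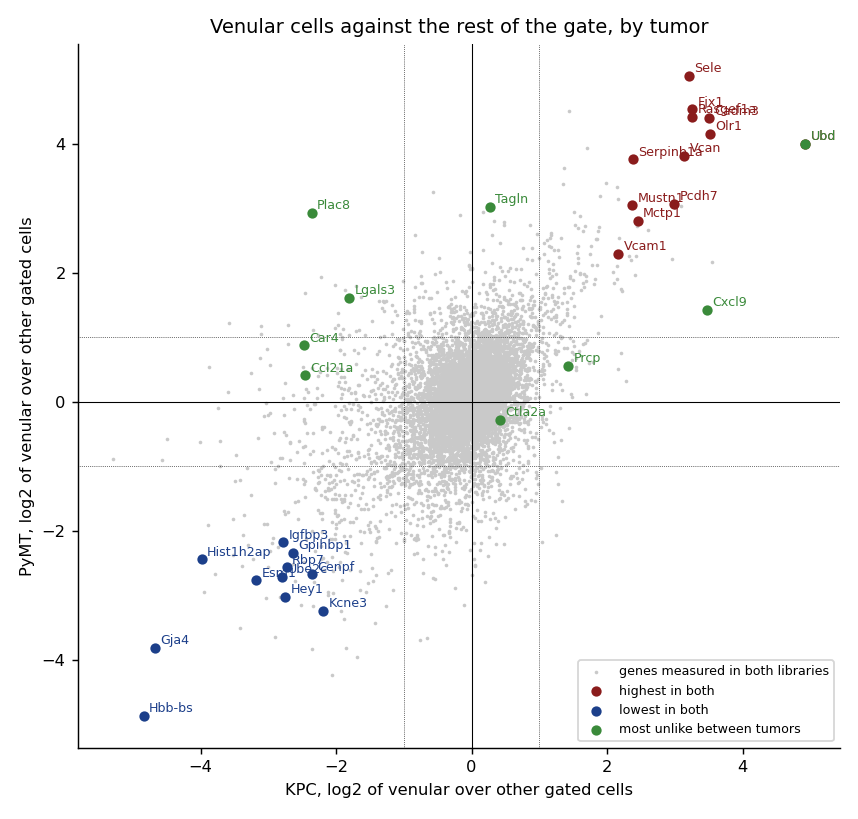
Log2 ratio of venular over other gated cells in KPC (horizontal axis) and PyMT (vertical axis) for genes measured in both libraries and present in both groups (grey points), with dotted lines at 2-fold. Colored points are the genes named by rank: Sele and Ubd lie at the upper right, Gja4 and Hbb-bs at the lower left, and Car4, Lgals3, Plac8 and Ccl21a in the quadrant that is lower in KPC and higher in PyMT.

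A group of 12 genes led the higher side in both tumors by the smaller of their interval bounds. The first was Ubd, which encodes the cytokine-induced ubiquitin-like protein FAT10, at 163 CPM against 5.34 in KPC (log2 ratio 4.93, 4.64 to 5.23) and 522 CPM against 32.7 in PyMT (3.99, 3.84 to 4.14). Ubd was uneven across cells, and a single KPC cell held 114 of 297 UMIs. With the richest venular cell and the richest other cell both left out, the KPC ratio was 4.63. Thinned to 2000 UMIs per cell, Ubd was seen in 6.43% of venular cells, 0.353% of the other gated cells and 0% of keratin cells of KPC, and in 25.5% of venular cells, 2.44% of the other gated cells and 0.505% of keratin cells of PyMT, where keratin cells are barcodes with at least 3 UMIs of Krt8 and Krt18 and no endothelial UMI, which should lack endothelial genes (350 in KPC and 203 in PyMT, at median depths of 10869 and 5468 UMIs). Unthinned, 7.28% and 0.43% of venular and other gated cells held it in KPC and 25.0% and 3.80% in PyMT. Fjx1, encoding a secreted Four-jointed homolog, was at 83.2 CPM against 8.68 in KPC (log2 ratio 3.26, 2.96 to 3.56) and 79.4 CPM against 3.43 in PyMT (4.53, 4.12 to 4.94). The endothelial E-selectin gene Sele was at 57.5 CPM against 6.20 in KPC (log2 ratio 3.21, 2.85 to 3.57) and 68.7 CPM against 2.07 in PyMT (5.05, 4.57 to 5.52). Pcdh7, a protocadherin gene, was at 74.4 CPM against 9.36 in KPC (log2 ratio 2.99, 2.68 to 3.30) and 50.5 CPM against 6.03 in PyMT (3.07, 2.59 to 3.51). Serpinb1a, an inhibitor of neutrophil serine proteases, was at 257 CPM against 49.3 in KPC (log2 ratio 2.38, 2.22 to 2.53) and 263 CPM against 19.4 in PyMT (3.76, 3.55 to 3.96).

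The rest of the group held genes of varied function. Vcan, the gene of the proteoglycan versican, was at 17.5 CPM against 1.99 in KPC (log2 ratio 3.14, 2.46 to 3.80) and 41.9 CPM against 2.97 in PyMT (3.82, 3.27 to 4.34). Olr1, encoding the oxidized low-density lipoprotein receptor LOX-1, rested on 22 and 16 venular UMIs, with log2 ratios of 3.52 in KPC and 4.16 in PyMT. For Rasgef1a these were 3.26 in KPC and 4.42 in PyMT on 25 and 15 UMIs, for the calcium-binding membrane protein gene Mctp1 2.45 in KPC and 2.80 in PyMT, and for Mustn1 2.37 in KPC and 3.04 in PyMT. Cadm3 had ratios of 3.50 in KPC and 4.40 in PyMT and is uncertain, because its annotated exons overlap those of the selection gene Ackr1 on the same strand. In KPC it was at 76.0 CPM in venular cells with Ackr1 only and at 3.15 in those with Selp only, and in PyMT all 16 of its venular UMIs were in cells that carried both markers. The last of the 12, Vcam1, is described with the adhesion molecules.

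Of the venous identity genes, Nr2f2 was at 151 CPM against 48.9 in KPC (log2 ratio 1.62, 1.43 to 1.81) and 131 CPM against 39.2 in PyMT (1.74, 1.46 to 2.00). Thinned, an Nr2f2 UMI was seen in 23.9% of venular cells, 9.41% of the other gated cells and 1.44% of keratin cells of KPC, against unthinned shares of 41.9% and 14.7% in venular and other gated cells. Aplnr, the apelin receptor gene of veins, was higher by less than 2-fold, with log2 ratios of 0.82 in KPC and 0.79 in PyMT, as were Nrp2 (0.47 in KPC and 0.67 in PyMT) and the angiopoietin receptor gene Tek (0.50 in KPC and 0.84 in PyMT). Ephb4, the classical venous ephrin receptor gene, was at 40.0 CPM against 37.8 in KPC (log2 ratio 0.08, -0.28 to 0.42) and 34.4 CPM against 29.8 in PyMT (0.20, -0.35 to 0.71), and both intervals include 0. Flt4, which encodes VEGFR3, was lower in both tumors (-1.22 in KPC and -1.17 in PyMT). In the list of venous identity factors and receptors, 1 of 9 measured genes were higher and 2 lower by 2-fold or more in KPC (median log2 ratio 0.11), and in PyMT 2 of 10 were higher and 1 lower by 2-fold or more (median 0.49). Nr2f2 was the only gene of this list past 2-fold upward in KPC, and the other one in PyMT Nr2f1 (1.14 on 5 UMIs).

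Genes known from venules were higher more often, in a list chosen with earlier results of these data known, so the counts are descriptions. In that list, 9 of 13 measured genes were higher and 0 lower by 2-fold or more in KPC (median log2 ratio 1.58), and in PyMT 7 of 13 were higher and 1 lower by 2-fold or more (median 1.35), beside 2.35% and 6.38% of all genes higher. Lrg1, encoding a secreted glycoprotein that modulates TGF-beta signaling, was at 3885 CPM against 874 in KPC (log2 ratio 2.15, 2.11 to 2.19) and 2896 CPM against 778 in PyMT (1.90, 1.84 to 1.95). Il6st, which encodes the shared cytokine receptor subunit gp130, was at 252 CPM against 80.7 in KPC (log2 ratio 1.64, 1.49 to 1.79) and 296 CPM against 47.5 in PyMT (2.64, 2.46 to 2.82). Il1r1, the interleukin-1 receptor gene, was at 93.6 CPM against 26.7 in KPC (log2 ratio 1.81, 1.56 to 2.05) and 68.7 CPM against 19.3 in PyMT (1.83, 1.44 to 2.20). Bst1, encoding the venule antigen CD157, was at 104 CPM against 29.0 in KPC (log2 ratio 1.84, 1.61 to 2.07) and 98.8 CPM against 17.1 in PyMT (2.53, 2.20 to 2.84). The protease inhibitor gene Spint2 had log2 ratios of 1.65 in KPC and 1.84 in PyMT and the small proteoglycan gene Bgn of 1.69 in KPC and 1.87 in PyMT. Emcn and Plvap, both broadly used by BECs of veins and capillaries, differed little, with ratios of 0.11 in KPC and 0.32 in PyMT and 0.09 in KPC and 0.45 in PyMT. Cytl1 was higher in KPC (1.34, 0.97 to 1.70) and had 1 venular UMI in PyMT. Thinned to 2000 UMIs per cell, Lrg1 was seen in 95.4% of venular cells, 56.0% of the other gated cells and 2.30% of keratin cells of KPC. Without thinning, at median depths of 3625, 2878 and 10869 UMIs, these shares were 98.9%, 54.7% and 13.4%.

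Cells with at least 3 UMIs of artery genes (180 in KPC, 144 in PyMT), of the capillary genes Car4 and Cd300lg (584, 1192) or of the tip-like genes Apln and Angpt2 (841, 904) were taken from the rest of the gate, each low for the other markers, for a comparison by vessel type. Lrg1 was higher in venular cells than in each of them, for example 3885 CPM against 856, 635 and 511 in KPC. Nr2f2, Il6st, Sele and Icam1 were likewise above all 3 in both tumors, Nr2f2 by 1.51 over arterial cells in KPC and 2.06 in PyMT on the log2 scale. Other genes were as high or higher in arterial cells. Vwf was at 251 (228 to 275) CPM in venular and 342 (288 to 403) in arterial cells of KPC, and at 244 (213 to 278) and 384 (331 to 444) in PyMT. Bgn was higher in arterial cells in KPC (823 against 497 CPM) and lower in them in PyMT (267 against 500.3). Vcam1 in KPC was at 172 (154 to 193) and 183 (144 to 229), with intervals that overlap. Tek in KPC was at 133 CPM in venular cells, 137 in arterial cells and 167 in cells chosen by capillary markers. Mgp, the matrix Gla protein gene, was 1.45 and 0.99 on the log2 scale above the rest of the gate, yet arterial cells of KPC stood at 3471 CPM against 268 in venular cells. Cytl1 and Ctsh of the venule list were also higher in arterial cells of KPC. They were at 385 CPM in arterial against 41.6 in venular cells for Cytl1, and at 245 against 87.0 for Ctsh.

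**Figure D2:**
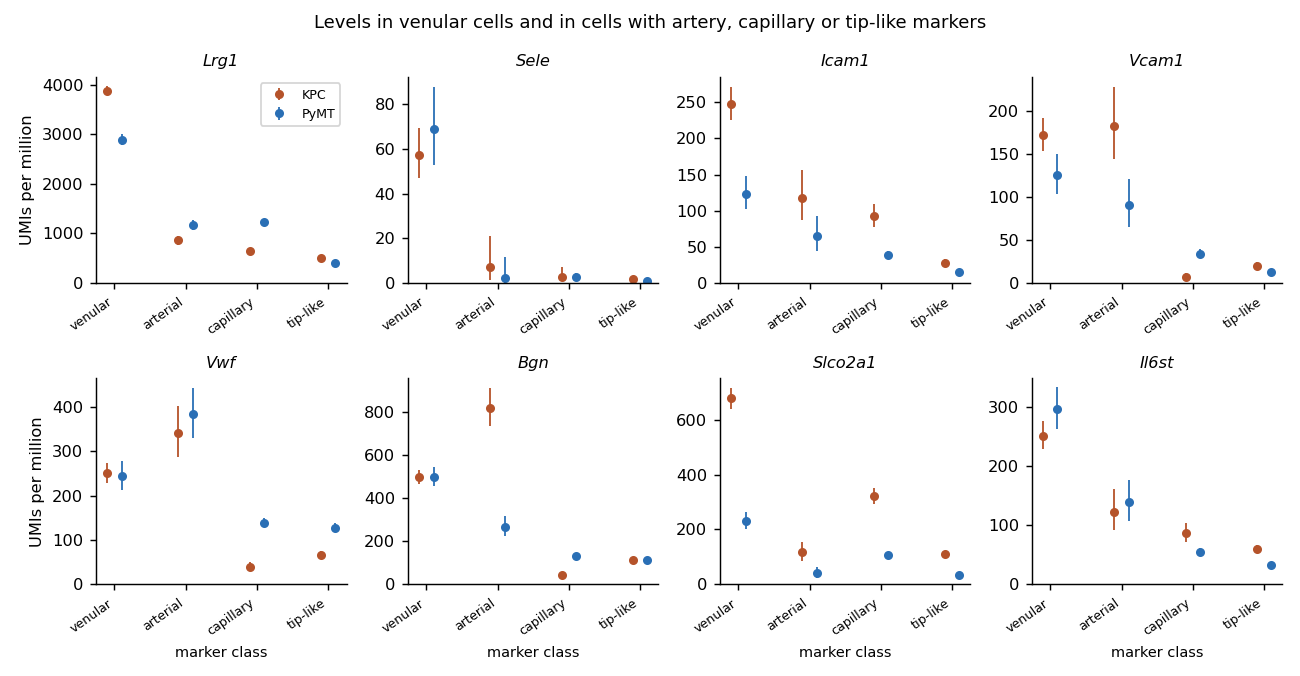
Levels in CPM (vertical axes, from 0) of 8 genes in venular cells and in cells chosen by artery, capillary or tip-like markers (horizontal axes), in KPC (brown) and PyMT (blue), with bars for 95% counting intervals. Lrg1, Sele, Icam1, Slco2a1 and Il6st are highest in venular cells of both tumors, whereas Vwf in both and Bgn in KPC are higher in arterial cells.

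Among the leukocyte adhesion genes, Icam1, which encodes the ligand of leukocyte beta2 integrins, was at 248 CPM against 68.4 in KPC (log2 ratio 1.86, 1.71 to 2.01) and 123 CPM against 28.5 in PyMT (2.11, 1.83 to 2.39). Vcam1, encoding the ligand of the integrin VLA-4, was at 172 CPM against 38.4 in KPC (log2 ratio 2.17, 1.98 to 2.35) and 126 CPM against 25.5 in PyMT (2.30, 2.01 to 2.57). With Sele, these 3 inducible receptors were higher in venular cells of both tumors. Thinned to equal depth, Sele UMIs were found in 8.58% of venular cells, 1.29% of the other gated cells and 0.287% of keratin cells of KPC, and in 11.5% of venular cells, 0.422% of the other gated cells and 0% of keratin cells of PyMT. The unthinned shares of venular and other cells were 17.9% and 1.94% in KPC and 16.7% and 0.791% in PyMT. Constitutive adhesion molecules behaved otherwise: Icam2 had log2 ratios of -0.50 in KPC and -0.76 in PyMT, the sialomucin gene Podxl of -0.64 in KPC and -0.47 in PyMT, Cd34 of -0.07 in KPC and -0.36 in PyMT and the junctional gene Jam3 of -1.07 in KPC and -0.85 in PyMT. The junctional gene Jam2 was higher in both (0.65 in KPC and 1.36 in PyMT). In KPC, however, arterial and capillary cells were above venular cells in Jam2, at 380 and 354 against 302 CPM. Over the list, 4 of 16 measured genes were higher and 2 lower by 2-fold or more in KPC (median log2 ratio -0.10), and in PyMT 6 of 17 were higher and 0 lower by 2-fold or more (median -0.15), and the medians lie near 0 with inducible and constitutive genes listed together. Of all genes, 2.35% in KPC and 6.38% in PyMT were higher, and 9.47% and 9.52% lower.

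Madcam1, encoding the addressin MAdCAM-1 that binds the integrin alpha4beta7, differed in level between the tumors, on 1 library each. It was at 389 CPM in venular and 33.1 in other gated cells of KPC (3.55, 3.41 to 3.70). In PyMT it was at 7.52 CPM, on 7 UMIs of which 4 were in 1 cell, against 1.67 (2.17, 0.81 to 3.28, and 1.02 with the richest cell of each side left out). Thinned, a Madcam1 UMI was present in 33.5% of venular cells, 4.44% of the other gated cells and 0.575% of keratin cells of KPC. The PyMT shares were 1.04% of venular cells, 0.366% of the other gated cells and 0% of keratin cells.

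Promoters of 4 of these inducible genes are shown because their transcription is classically driven by the cytokine-activated factor NF-kB. Each is the 250 bases before the RefSeq start on build GRCm38.p6, on the plus strand, at chr1:164047984-164048233 for Sele, chr9:21015690-21015939 for Icam1, chr10:79664309-79664558 for Madcam1 and chr17:37193642-37193891 for Ubd. Capitals mark matches to the NF-kB consensus GGGRNWYYCC on either strand, where R is A or G, W is A or T, Y is C or T and N is any base.
Sele: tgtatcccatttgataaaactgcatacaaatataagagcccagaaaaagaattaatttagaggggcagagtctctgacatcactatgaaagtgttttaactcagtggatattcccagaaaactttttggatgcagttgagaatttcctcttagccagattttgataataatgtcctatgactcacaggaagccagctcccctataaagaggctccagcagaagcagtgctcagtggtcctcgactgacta
Icam1: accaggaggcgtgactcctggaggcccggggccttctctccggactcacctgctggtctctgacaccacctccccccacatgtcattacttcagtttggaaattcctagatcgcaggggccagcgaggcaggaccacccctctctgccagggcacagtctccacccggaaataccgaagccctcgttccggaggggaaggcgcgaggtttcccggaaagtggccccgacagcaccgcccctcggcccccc
Madcam1: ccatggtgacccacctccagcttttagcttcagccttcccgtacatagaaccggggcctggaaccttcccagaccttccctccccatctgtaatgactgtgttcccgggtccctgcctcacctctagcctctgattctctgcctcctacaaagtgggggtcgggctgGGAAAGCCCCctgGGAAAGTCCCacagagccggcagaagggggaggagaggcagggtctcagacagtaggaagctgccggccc
Ubd: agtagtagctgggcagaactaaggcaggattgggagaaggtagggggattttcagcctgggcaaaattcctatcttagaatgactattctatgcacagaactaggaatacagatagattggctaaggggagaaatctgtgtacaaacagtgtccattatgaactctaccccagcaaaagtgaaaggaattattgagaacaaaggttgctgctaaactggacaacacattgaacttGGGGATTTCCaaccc
Madcam1 held 2 matches, which begin 83 and 70 bases before the start, and Ubd held 1 that begins 15 bases before it. The windows of Sele and Icam1 held no match to this spelling, and looser spellings were not searched. Such a match was present in 1281 of 32851 promoters of this length (3.9%), and in 2 of the 10 promoters listed for 9 of the 12 leading genes (that of Ubd and 1 of the windows of Rasgef1a). The nuclear receptor half-site AGGTCA, searched on both strands, was in 14.0% of all promoters and in 1 of these 10 (Olr1). No site of binding is implied by a match.

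Several genes of cytokine reception were higher in venular cells. In that list, 4 of 17 measured genes were higher and 1 lower by 2-fold or more in KPC (median log2 ratio 0.25), and in PyMT 8 of 18 were higher and 0 lower by 2-fold or more (median 0.70), beside 2.35% and 6.38% of all genes higher and 9.47% and 9.52% lower. Lifr, which pairs with gp130 for leukemia inhibitory factor and oncostatin M, was at 49.8 CPM against 23.1 in KPC (log2 ratio 1.11, 0.78 to 1.43) and 74.1 CPM against 13.0 in PyMT (2.52, 2.13 to 2.88). Its partner Osmr passed 2-fold in PyMT (1.45, 0.98 to 1.89, against 0.25, -0.05 to 0.53 in KPC). In KPC, arterial cells were close to venular cells in Lifr, at 55.3 CPM (35.1 to 83.0). They were above venular cells in Osmr, at 137 against 60.7 CPM. Csf2rb, the common beta chain of the receptors for GM-CSF, IL-3 and IL-5, was at 73.9 CPM against 27.7 in KPC (log2 ratio 1.41, 1.14 to 1.68) and 184 CPM against 67.9 in PyMT (1.43, 1.20 to 1.66). The tumor necrosis factor receptor gene Tnfrsf1a was higher by less than 2-fold (0.60 in KPC and 0.50 in PyMT), and Il10rb was lower (-1.11 in KPC and -0.83 in PyMT).

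Il6, the gene of the inflammatory cytokine interleukin-6, was at 61.3 CPM against 25.4 in KPC (log2 ratio 1.27, 0.97 to 1.56) and 61.2 CPM against 12.01 in PyMT (2.35, 1.93 to 2.74). Arterial cells of KPC were at 72.2 CPM of Il6 (48.7 to 103), an interval that includes the venular level. Il6 belonged to a group of NF-kB response genes in which 2 of 14 measured genes were higher and 0 lower by 2-fold or more in KPC (median log2 ratio 0.42), and in PyMT 4 of 14 were higher and 0 lower by 2-fold or more (median 0.61). The feedback inhibitor gene Tnfaip3 had log2 ratios of 1.09 in KPC and 1.67 in PyMT, Nfkbiz of 0.91 in KPC and 1.19 in PyMT and Nfkbia of 0.72 in KPC and 0.66 in PyMT. Cells chosen by capillary markers in KPC were close to venular cells in Nfkbiz, at 188 against 191 CPM. Immediate early genes, which respond to dissociation as well as to growth factors, had ratios near 0 in KPC and above 0 in PyMT, for example 0.32 in KPC and 1.01 in PyMT for Zfp36 and -0.12 in KPC and 0.87 in PyMT for Egr1. The list medians were 0.003 and 0.56. The median mitochondrial share was 3.91% in venular and 2.84% in other gated cells of PyMT, and 2.92% and 2.47% in KPC. The part of dissociation and RNA quality in the ratios was not tested.

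Genes of antigen presentation were modestly higher. Class I genes had log2 ratios below 1, such as 0.59 in KPC and 0.81 in PyMT for H2-K1 and 0.35 in KPC and 0.42 in PyMT for B2m. Class II genes were sparse, but Cd74, encoding the invariant chain, was at 52.5 CPM against 14.1 in KPC (log2 ratio 1.90, 1.56 to 2.23) and 14.0 CPM against 1.53 in PyMT (3.19, 2.22 to 4.05), and H2-Ab1 had ratios of 1.36 in KPC and 3.62 in PyMT. Thinned, Cd74 was seen in 4.83% of venular cells, 1.08% of the other gated cells and 1.15% of keratin cells of KPC, where the unthinned shares of venular and other cells were 5.96% and 1.78%. In the list, 4 of 14 measured genes were higher and 0 lower by 2-fold or more in KPC (median log2 ratio 0.57), and in PyMT 3 of 12 were higher and 0 lower by 2-fold or more (median 0.52). Interferon-induced GTPase genes were higher too, with Iigp1 at 337 CPM against 154 in KPC (log2 ratio 1.13, 1.001 to 1.25) and 325 CPM against 71.3 in PyMT (2.19, 2.02 to 2.36) and Gbp2 at log2 ratios of 1.11 in KPC and 1.40 in PyMT. The antiviral interferon genes did not share this: Isg15 had ratios of -0.05 in KPC and 0.13 in PyMT, Ifit1 of -0.07 in KPC and 0.42 in PyMT and Rsad2 of -1.94 in KPC and -0.56 in PyMT. In the interferon response list, 2 of 15 measured genes were higher and 1 lower by 2-fold or more in KPC (median log2 ratio 0.18), and in PyMT 4 of 15 were higher and 0 lower by 2-fold or more (median 0.40). Members of the Gbp, Iigp and class II families share sequence with close relatives, and their split of reads is uncertain.

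The interferon-inducible chemokine gene Cxcl9, whose product attracts T cells through CXCR3, was at 85.4 CPM against 7.70 in KPC (log2 ratio 3.47, 3.16 to 3.78) and 118 CPM against 44.0 in PyMT (1.42, 1.13 to 1.70). Single cells held 68 of 156 and 27 of 110 venular UMIs, and with the richest cell of each side left out the ratios were 2.96 and 1.05. Cxcl10 had ratios of 1.54 in KPC and 0.69 in PyMT, and the PyMT value was -0.01 with the richest cell of each side left out. Tip-like cells of KPC were close to venular cells in Cxcl10, at 73.3 against 83.2 CPM (log2 ratio of venular over tip-like 0.18, -0.10 to 0.46). Cxcl12, the ligand of CXCR4, was lower in venular cells, at 33.4 CPM against 269.7 in KPC (log2 ratio -3.01, -3.40 to -2.65) and 17.2 CPM against 63.5 in PyMT (-1.89, -2.70 to -1.19). Its scavenging receptor gene Ackr3 was lower as well (-0.40 in KPC and -1.65 in PyMT). Over the chemokine list, 2 of 15 measured genes were higher and 7 lower by 2-fold or more in KPC (median log2 ratio -0.92), and in PyMT 3 of 15 were higher and 4 lower by 2-fold or more (median 0.45).

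HEV genes were examined because they mark venules of lymphoid tissue. Glycam1, a carrier of sulfated L-selectin ligands, was at 14.8 CPM in KPC venular cells on 27 UMIs. The other gated cells of KPC were at 0.714 CPM on 19 UMIs (log2 ratio 4.37, 3.47 to 5.30). With 46 UMIs over the KPC gate, Glycam1 fell short of the UMI minimum and is not among the measured KPC genes counted below. In PyMT it was at 899 CPM (5.06, 4.93 to 5.18), but 782 of 837 UMIs came from 1 cell, and the ratio was 1.70 with the richest cell of each side left out. Of the enzymes that build L-selectin ligands, B3gnt3 had log2 ratios of 0.54 in KPC and 0.59 in PyMT, St3gal4 of 0.27 in KPC and 0.74 in PyMT and Chst2 of -0.09 in KPC and 0.58 in PyMT. In the HEV glycosylation list, 0 of 8 measured genes were higher and 0 lower by 2-fold or more in KPC (median log2 ratio 0.09), and in PyMT 4 of 9 were higher and 0 lower by 2-fold or more (median 0.74). The PyMT genes were Glycam1, Enpp2 (2.23 on 24 UMIs), St6gal1 (1.43 on 18) and Gcnt1 (1.27 on 4), and the difference from KPC was not tested. St6gal1 changed sign in PyMT, to -0.32 with at least 5 marker UMIs and -0.11 with Ackr1 alone as marker.

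**Figure D3:**
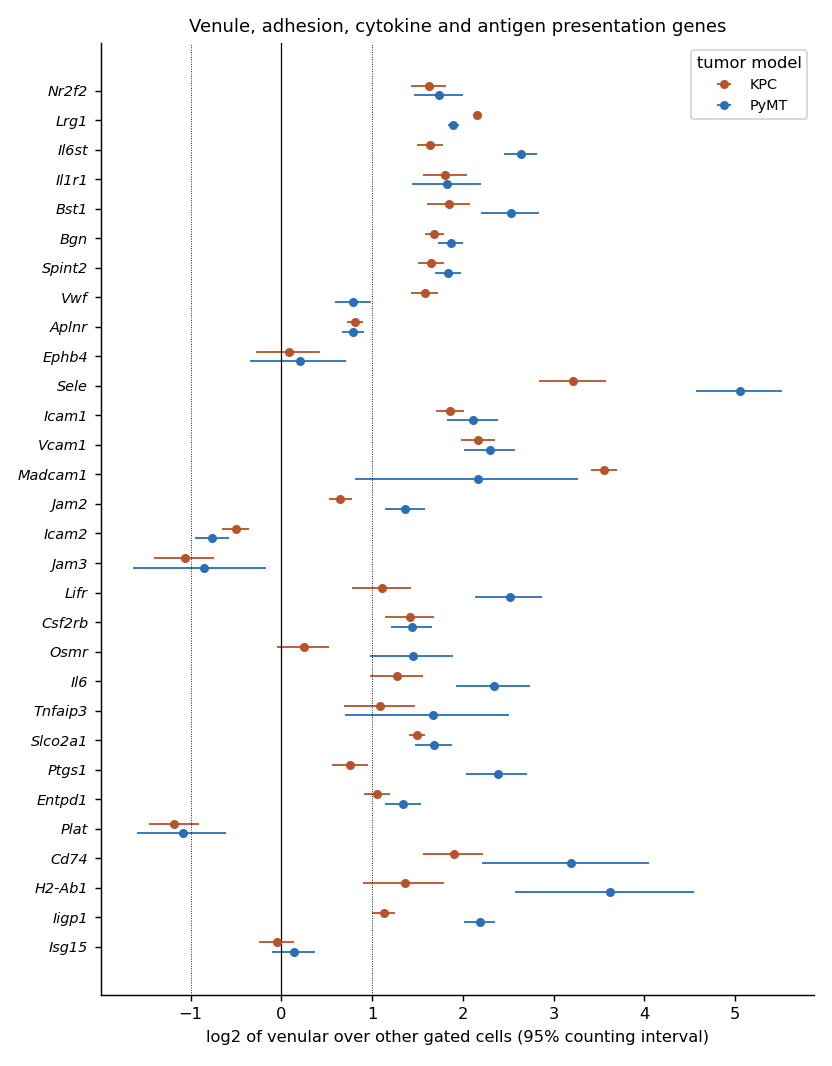
Log2 ratio of venular over other gated cells (horizontal axis) for venule, adhesion and related genes in KPC (brown) and PyMT (blue), with 95% counting intervals and dotted lines at 2-fold. Nr2f2, Lrg1, Il1r1, Sele, Icam1, Vcam1 and Slco2a1 lie past 2-fold in both, Ephb4 and Isg15 lie near 0, and Plat lies below 0.

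Venular cells also differed in genes of vascular tone, hemostasis and permeability. In the prostanoid list, 2 of 5 measured genes were higher and 0 lower by 2-fold or more in KPC (median log2 ratio 0.76), and in PyMT 2 of 3 were higher and 0 lower by 2-fold or more (median 1.68). Slco2a1, the prostaglandin transporter gene, was at 678 CPM against 241 in KPC (log2 ratio 1.49, 1.40 to 1.58) and 231 CPM against 72.0 in PyMT (1.68, 1.47 to 1.88). Ptgs1, encoding cyclooxygenase-1, was at 131 CPM against 77.4 in KPC (log2 ratio 0.76, 0.56 to 0.95) and 89.1 CPM against 17.1 in PyMT (2.38, 2.04 to 2.71). Cells chosen by capillary markers in KPC were at 143 CPM of Ptgs1 (124 to 164), an interval that includes the venular level. Entpd1, encoding the ATP-degrading enzyme CD39, was at 239.7 CPM against 115 in KPC (log2 ratio 1.05, 0.91 to 1.20) and 239 CPM against 94.4 in PyMT (1.34, 1.14 to 1.54), and arterial cells were close to it (236 and 263 CPM). Plat, the tissue plasminogen activator gene, was lower (-1.18 in KPC and -1.08 in PyMT). The coagulation factor VIII gene F8 was higher in KPC (1.59, 1.02 to 2.13) and had 0 UMIs in the 240 PyMT venular cells, where 3 counts would make 3.22 CPM against 2.32 in the other cells. In the hemostasis list, 4 of 13 measured genes were higher and 1 lower by 2-fold or more in KPC (median log2 ratio 0.71), and in PyMT 3 of 13 were higher and 1 lower by 2-fold or more (median 0.47).

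Of the permeability genes, the water channel gene Aqp1 was at 1155 CPM against 817 in KPC (log2 ratio 0.50, 0.43 to 0.56) and 1156 CPM against 299 in PyMT (1.95, 1.86 to 2.04). Venular levels were thus close in the 2 tumors, and the other gated cells of PyMT were lower. Cells chosen by capillary markers in KPC were above the venular cells in Aqp1, at 1525 CPM. Calcrl, the adrenomedullin and CGRP receptor gene, was higher (0.94 in KPC and 1.32 in PyMT), and the endothelin receptor gene Ednrb was lower (-2.06 in KPC and -1.24 in PyMT). In the list of permeability genes and mediator receptors, 0 of 11 measured genes were higher and 3 lower by 2-fold or more in KPC (median log2 ratio 0.09), and in PyMT 3 of 11 were higher and 4 lower by 2-fold or more (median 0.24). Among matrix genes, Tgfbi, encoding a TGF-beta-induced adhesion protein, was at 199.8 CPM against 46.8 in KPC (log2 ratio 2.09, 1.92 to 2.26) and 156 CPM against 38.4 in PyMT (2.02, 1.76 to 2.26). Fbln2, the fibulin-2 gene, had log2 ratios of 0.30 in KPC and 2.16 in PyMT. The basement membrane genes Lama4 (-1.06 in KPC and -1.01 in PyMT) and Nid2 (-1.70 in KPC and -1.12 in PyMT) were lower, as was the fibronectin gene Fn1 (-1.35 in KPC and -0.86 in PyMT). In the matrix list, 3 of 19 measured genes were higher and 4 lower by 2-fold or more in KPC (median log2 ratio -0.28), and in PyMT 4 of 19 were higher and 4 lower by 2-fold or more (median -0.36).

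The 12 lowest genes in both tumors were Gja4, Hbb-bs, Krt8, Esm1, Ube2c, Gpihbp1, Hey1, Igfbp3, Cenpf, Rbp7, Hist1h2ap and Kcne3. Hbb-bs and Krt8 are genes of red cells and of tumor cells. Gja4, encoding the arterial connexin 37, was at 5.47 CPM against 140.2 in KPC (log2 ratio -4.68, -5.74 to -3.80) and 6.44 CPM against 90.6 in PyMT (-3.81, -5.26 to -2.69). Hey1, a Notch target gene, was at 9.30 CPM against 62.9 in KPC (log2 ratio -2.76, -3.54 to -2.07) and 8.59 CPM against 69.9 in PyMT (-3.02, -4.24 to -2.04). Efnb2 had log2 ratios of -2.07 in KPC and -1.34 in PyMT, Dll4 of -1.24 in KPC and -1.27 in PyMT and the guidance receptor gene Unc5b of -3.31 in KPC and -2.22 in PyMT. The artery limit of the rule removed arterial cells from the venular side alone, and without such cells among the others Gja4 was at a log2 ratio of -4.57 in KPC and -3.57 in PyMT. In the artery list, 1 of 16 measured genes were higher and 8 lower by 2-fold or more in KPC (median log2 ratio -1.11), and in PyMT 1 of 15 were higher and 7 lower by 2-fold or more (median -0.57), beside 9.47% and 9.52% of all genes lower. Cenpf, Ube2c and Hist1h2ap are cycling genes that the cycling limit reaches in the same way, with ratios of -2.35 in KPC and -2.68 in PyMT, -2.79 in KPC and -2.71 in PyMT and -3.99 in KPC and -2.44 in PyMT. Against other cells within both limits, the log2 ratios of Cenpf were 0.055 in KPC and -0.96 in PyMT.

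Esm1, the tip-cell gene for endocan, was at 52.5 CPM against 475 in KPC (log2 ratio -3.18, -3.48 to -2.89) and 27.9 CPM against 189 in PyMT (-2.76, -3.38 to -2.21). Kcne3, a potassium channel subunit gene of tip cells, was at 17.5 CPM against 80.1 in KPC (log2 ratio -2.19, -2.75 to -1.69) and 11.8 CPM against 112 in PyMT (-3.24, -4.24 to -2.40). Igfbp3, encoding an insulin-like growth factor binding protein, was at 204 CPM against 1403 in KPC (log2 ratio -2.78, -2.93 to -2.63) and 389.7 CPM against 1765 in PyMT (-2.18, -2.33 to -2.03). Trp53i11 (-1.51 in KPC and -1.97 in PyMT) and Mest (-0.98 in KPC and -1.28 in PyMT) were lower too. Apln had ratios of -1.14 in KPC and -0.45 in PyMT and Angpt2, the TIE2 ligand gene, of -0.76 in KPC and 0.30 in PyMT. In the angiogenic list, 0 of 17 measured genes were higher and 7 lower by 2-fold or more in KPC (median log2 ratio -0.80), and in PyMT 0 of 17 were higher and 8 lower by 2-fold or more (median -0.92). Sprouting genes other than Angpt2 were therefore below the rest of the gate in both tumors among those named.

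Capillary genes did not behave as a block. Gpihbp1, which anchors lipoprotein lipase on capillaries, was at 128 CPM against 799 in KPC (log2 ratio -2.64, -2.83 to -2.46) and 236 CPM against 1193 in PyMT (-2.34, -2.53 to -2.15). Rgcc (-0.99 in KPC and -1.24 in PyMT) and the retinol-binding protein gene Rbp7 (-2.73 in KPC and -2.56 in PyMT) were lower in both tumors. Car4, encoding the capillary carbonic anhydrase, was at 15.9 CPM against 88.1 in KPC (log2 ratio -2.47, -3.05 to -1.95) and 724 CPM against 394 in PyMT (0.88, 0.76 to 0.99). Genes of fatty acid handling also lay on opposite sides of 0: Cd36 had log2 ratios of -0.42 in KPC and 0.88 in PyMT, Fabp4 of -0.44 in KPC and 0.59 in PyMT and Fabp5 of -0.92 in KPC and 0.59 in PyMT. Meox2, a transcription factor gene, was higher in both (1.36 in KPC and 0.84 in PyMT), and Tcf15 (-2.14 in KPC and -0.74 in PyMT) was lower in both. Arterial cells of KPC were above venular cells in Meox2, at 57.7 against 23.5 CPM. Venular cells in PyMT stood at 724 CPM of Car4 and those in KPC at 15.9, while cells chosen by capillary markers that include Car4 stood at 1248 and 909. In the capillary list, 1 of 12 measured genes were higher and 4 lower by 2-fold or more in KPC (median log2 ratio -0.92), and in PyMT 1 of 14 were higher and 3 lower by 2-fold or more (median 0.23). The difference between the tumors was not tested.

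By the gap between their intervals, genes that stood furthest above the other tumor in KPC included Cxcl9, Prcp (1.43 in KPC and 0.56 in PyMT), Ctla2a (0.42 in KPC and -0.28 in PyMT) and Ubd. Prcp encodes a carboxypeptidase that acts on angiotensin, and Ctla2a belongs to a family of near-identical copies. Those furthest above in PyMT were Plac8 (-2.36 in KPC and 2.93 in PyMT), Car4, Lgals3 (-1.81 in KPC and 1.61 in PyMT), Ccl21a (-2.46 in KPC and 0.41 in PyMT) and Tagln (0.27 in KPC and 3.03 in PyMT). The KPC ratio of Lgals3 was 0.44 after thinning, on the other side of 0. In the lists of vessel receptors with Notch genes, 0 of 17 measured genes were higher and 4 lower by 2-fold or more in KPC (median log2 ratio -0.53), and in PyMT 1 of 17 were higher and 3 lower by 2-fold or more (median -0.16). In the flow response list, 0 of 7 measured genes were higher and 1 lower by 2-fold or more in KPC (median log2 ratio -0.03), and in PyMT 1 of 7 were higher and 0 lower by 2-fold or more (median 0.36). Among DNA replication genes, 0 of 12 measured genes were higher and 2 lower by 2-fold or more in KPC (median log2 ratio -0.46), and in PyMT 0 of 12 were higher and 0 lower by 2-fold or more (median -0.20), beside 9.47% and 9.52% of all genes lower.

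**Figure D4:**
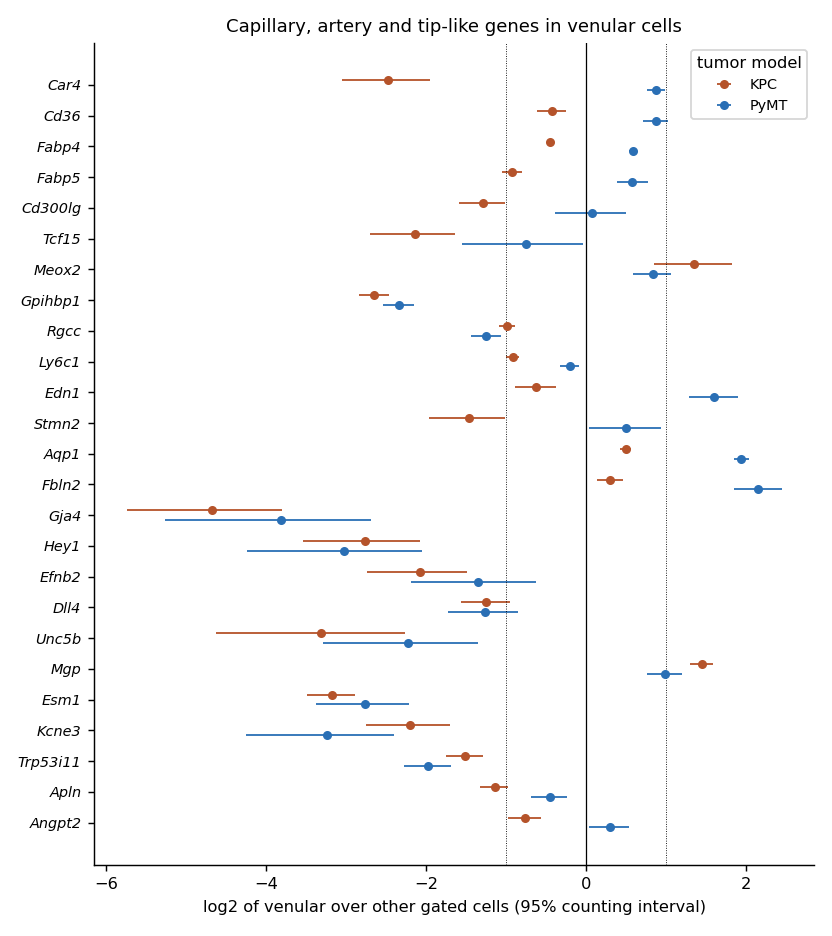
Log2 ratio of venular over other gated cells (horizontal axis) for capillary, artery and tip-like genes in KPC (brown) and PyMT (blue), with 95% counting intervals and dotted lines at 2-fold. Car4, Cd36, Fabp4, Fabp5, Edn1 and Stmn2 lie below 0 in KPC and above 0 in PyMT, whereas Gja4, Hey1, Esm1 and Gpihbp1 lie below 0 in both.

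The venular cells were not uniform. Ackr1 without Selp was carried by 43 KPC and 36 PyMT cells, Selp without Ackr1 by 128 and 49, and both by 282 and 155. Cells with Selp only were the deeper ones, at median depths of 4488 UMIs in KPC and 4267 in PyMT, against 2403 and 2691.5 for Ackr1 only. They also stood lower in several venule genes. Nr2f2 was at 96.2 CPM in Selp-only cells of KPC, 245 in Ackr1-only cells and 172 in cells with both. The same 3 groups were at 167, 414 and 328 for Il6st in PyMT. Fjx1 was at 22.1 CPM in Selp-only and 118 in double-positive cells of KPC, and at 20.8 and 98.7 in PyMT. Icam1 did not follow this order, at 271 in Selp-only and 186 in Ackr1-only cells of KPC.

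Within the artery and cycling limits, gated cells were divided by their sum of Ackr1 and Selp into 0, 1, 2, 3 to 4, 5 to 9 and at least 10 UMIs. Lrg1 levels were 701, 1694, 2586, 3038, 3814 and 5255 CPM in that order in KPC, and 698, 1519.6, 2050.2, 2680.2, 2878 and 3444 in PyMT. Fjx1 levels were 4.68, 8.41, 28.2, 39.5, 78.7 and 155 CPM in KPC, and 1.80, 14.5, 21.5, 49.1, 70.8 and 168 in PyMT. Gpihbp1 ran the other way, at 1060.2, 378, 267, 164, 150.1 and 41.5 CPM in KPC. Mean levels of these genes changed across the bins without a step at the threshold. The bins use the selecting markers, and a low sum can mix venular and other cells. Whether single cells are graded can therefore not be told from these means and was not tested. Cells just inside, with exactly 3 marker UMIs (87 in KPC, 85 in PyMT), had 2859.7 and 2695 CPM of Lrg1, and cells just outside, with exactly 2 (170 and 129), had 2586 and 2050.2. For Nr2f2 in KPC the order was turned, at 97.1 inside and 130.3 outside. Ubd was concentrated at the top of the range, at 387 CPM in KPC and 1456 in PyMT among cells with at least 10 marker UMIs, against 8.78 and 287 at 3 to 4.

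**Figure D5:**
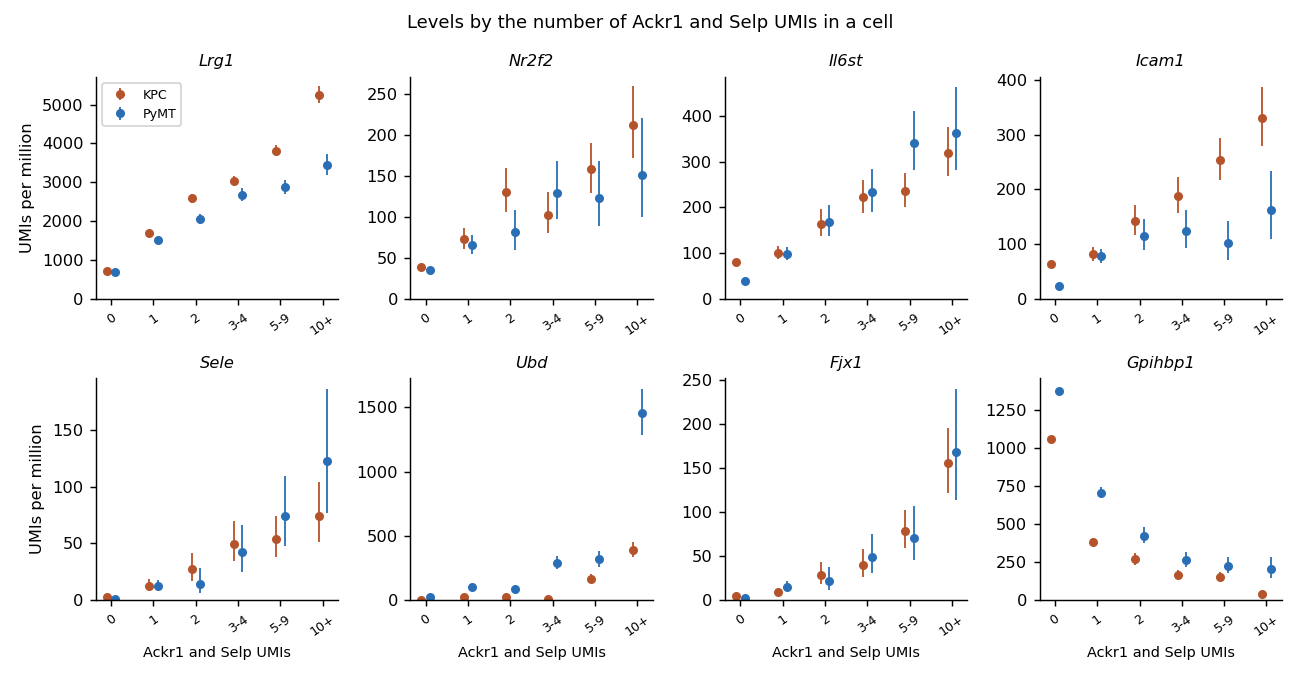
Levels in CPM (vertical axes, from 0) of 8 genes in gated cells divided by their number of Ackr1 and Selp UMIs (horizontal axes), in KPC (brown) and PyMT (blue), with 95% counting intervals; groups from 3 UMIs are venular. Lrg1, Il6st and Fjx1 are higher with more marker UMIs, Ubd is highest at 10 or more, and Gpihbp1 is lower with more.

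Madcam1 divided the KPC venular cells: 174 of 453 (38.4%) held at least 1 UMI and 279 did not, at median depths of 3673.5 and 3576 UMIs. This split and the genes named for it were chosen after their values were seen. A cell without a Madcam1 UMI may still have held the transcript. Several genes showed little difference, with Nr2f2 at 158 CPM with Madcam1 and 146 without, and Icam1 at 228 and 260.3. Lrg1 was higher with Madcam1, at 4712 against 3369 CPM (log2 ratio 0.48, 0.42 to 0.55). Ubd was at 383 CPM against 24.9 (log2 ratio 3.95, and 3.43 with the richest cell of each side left out). Cxcl9 was at 175 against 29.3 (2.58, and 2.07 without those cells), and Cxcl10 at 171 against 28.4 (2.59 and 2.60). Any Ubd was held by 19 of the 174 and 14 of the 279 cells. The keratin gene Krt18 was also higher with Madcam1, at 48.5 against 12.4 CPM (1.96, 1.03 to 2.97, and 1.15 with the richest cells left out), as was the osteopontin gene Spp1 (2.57, and 0.74), and the part of other cells was not tested. Mgp was lower in cells with Madcam1, at 105 against 369 CPM, and so were Cxcl12 (11.4 against 47.1) and the neutrophil chemokine gene Cxcl1 (18.5 against 63.1).

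Summed markers of other cells were lower in venular cells than in the rest of the gate for 5 of 7 lists in KPC and 3 of 7 in PyMT. Summed epithelial and tumor markers were at 96.3 against 1095 CPM in KPC and 7.52 against 46.1 in PyMT, red cell markers at 1.64 against 90.2 and 3.22 against 58.4, and fibroblast markers at 25.2 against 53.4 and 21.5 against 43.5. Krt8, a tumor keratin gene, was among the 12 lowest genes, at 24.1 against 307 CPM in KPC, and 0 of its UMIs were in PyMT venular cells, where 3 counts would make 3.22 CPM, at least 6.32-fold lower than 20.4. Hbb-bs, a hemoglobin gene of red cells, was also among them (-4.84 in KPC and -4.87 in PyMT), and 0.504% and 0.425% of the other gated cells held it. Lymphatic markers were at 93.0 against 333 CPM in KPC and 397 against 324 in PyMT, immune markers at 615 against 544 and 359.7 against 224, and platelet markers at 30.1 against 19.5 and 20.4 against 11.99. Gene by gene, 0 of 8 measured lymphatic markers were higher and 1 lower by 2-fold or more in PyMT (median log2 ratio -0.28). The lymphatic sum includes Ccl21a, whose PyMT venular UMIs were uneven across cells. Srgn, which BECs also express, made up 582 and 334 CPM of the immune sums, and C1qa was at 0 UMIs in venular cells of both tumors, as was Lyz2 in PyMT. Of the immune markers 3 of 11 were at 0 in KPC venular cells and 6 in PyMT. Pericyte markers were at 421 against 453 and 123 against 118, and one of them, the smooth muscle gene Tagln, was higher in PyMT (3.03, 2.66 to 3.37) and nearly level in KPC (0.27, 0.13 to 0.40). Tagln made up 270 CPM of the KPC venular sum. Of 7 measured pericyte markers, 0 were higher and 5 lower by 2-fold or more in KPC (median log2 ratio -1.53). In PyMT 2 of 7 were higher and 3 lower (median -0.93). The part of such cells in the ratios was not tested.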

How the data were processed

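Per the labels, the authors made UMI counts per gene and barcode with Cell Ranger 3.0 (matrix header 3.0.2) on mm10, and the deposited counts of 31055 features were used as they stand. No aligner setting for strand is given in the sources used here, so genes that overlap on opposite strands (among them Vcam1, Icam1, Nr2f2, Bst1, Pcdh7, Krt8, Ube2c, Cxcl10, Tagln, Mest and Nid2) and copies in gene families are less certain. The transgene features TdTomato and CreERT2 had 0 UMIs, and Cd99 and Cxcl11 were not analysed here.

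Venular cells were compared with all other gated cells of the same library by summed UMIs. Exact 95% intervals of levels (Poisson), ratios (conditional binomial) and shares (Clopper-Pearson) cover counting error only. With 1 library per tumor there was no test. Genes with at least 50 UMIs over the gate were counted at a threshold of 2-fold, and the 15 genes of the rule were left out. A gene at 0 was set to 3 counts for a bound. Named genes were the 12 highest by the smaller lower bound of the 2 libraries, the 12 lowest by the larger upper bound, the 5 per direction with the widest gap between the libraries' intervals, and the listed genes of each group. An item of the line descriptions and a gene that the rule named are not reported here. Members and gene lists were chosen with earlier results of these data known. Shares of cells were also computed after thinning each cell to 2000 UMIs, which left out 80 KPC and 48 PyMT venular cells. No doublet caller was run, so doublets remain, and leaving out the 8% of cells with most UMIs was an alternative. Other alternatives changed the filters, markers, limits, reference cells, averaging, scaling and gene minimum, and 2 were added after seeing the data: leaving out the richest cell per gene and requiring 10 expected UMIs. The ratio script was checked on simulated counts. Promoters were those of RefSeq on GRCm38.p6, found for 9 of the 12 highest genes, with more than 1 window for Rasgef1a. Python 3.11.15, numpy 2.4.6, scipy 1.17.1, pandas 2.3.3 and matplotlib 3.10.9 were used.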

Additional observations from a re-analysis of the deposited data

Results flagged for a closer look

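Among the genes named in the text, those whose ratio of venular over other gated cells lay on opposite sides of 0 in the 2 tumors, with intervals apart from 0 in both and past 2-fold in at least 1, are listed here with their log2 ratios. Each tumor is 1 library, and the difference between the tumors was not tested. Car4 was at -2.47 in KPC and 0.88 in PyMT. Edn1, the endothelin-1 gene, was at -0.62 and 1.61, and the stathmin family gene Stmn2 at -1.46 and 0.51. Ccl21a, a chemokine gene of lymphatics and HEVs carried by more than 1 near-identical copy, was at -2.46 and 0.41, and 1 cell held 106 of 323 PyMT venular UMIs. With the richest cell of each side left out the PyMT value of Ccl21a was -0.15. Plac8 was at -2.36 and 2.93. The PyMT value of Plac8 rests on 7 UMIs, 5 of them in 1 cell, and in KPC 97.4% of keratin cells thinned to 2000 UMIs held Plac8. Lgals3, encoding galectin-3, was at -1.81 and 1.61, and 61.2% of the KPC keratin cells held it. The KPC value of Lgals3 changed sign to 0.24 without the 8% of cells with most UMIs and to 0.44 after thinning. The part of tumor cell RNA in the KPC values of Plac8 and Lgals3 was not tested.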

How the results depend on the processing

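The venular share depended on every choice about the markers and on depth, and stayed higher in KPC under each of the 7 alternatives tried. It was 7.63% in KPC and 1.99% in PyMT under stricter cell limits (1000 genes, 5% mitochondrial UMIs), 3.97% in KPC and 1.15% in PyMT with at least 5 marker UMIs, 2.82% in KPC and 1.10% in PyMT by Ackr1 alone, 4.09% in KPC and 1.10% in PyMT by Selp alone, and 5.56% in KPC and 1.31% in PyMT after thinning. Genes 2-fold or more higher numbered 475 in KPC by Ackr1 alone, and 976 in KPC and 1489 in PyMT with no minimum of UMIs. Genes 2-fold or more lower numbered 1735 in PyMT by Ackr1 alone and 1625 after thinning. A pair of alternatives was chosen after seeing the data. With at least 10 UMIs expected in venular cells, 143 in KPC and 164 in PyMT were higher and 586 in KPC and 311 in PyMT lower. With the richest cell of each gene left out on both sides, 475 were higher and 1858 lower in PyMT. The other counts stayed within 1.5 times their reported values.

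For log2 ratios of single genes named in the text, 2091 of 2733 alternative values lay within the interval of the reported value, 637 lay outside it, and 5 that had been past 2-fold changed sign. Lgals3 in KPC was at 0.24 without the 8% of cells with most UMIs and 0.44 after thinning, Cenpf in KPC at 0.055 against cells within the artery and cycling limits, and St6gal1 in PyMT at -0.32 with at least 5 marker UMIs and -0.11 by Ackr1 alone; the causes were not tested. No paired analysis was possible because each tumor had 1 library and no result comes from a test. No library could be left out either. The intervals measure counting error alone, so whether a difference between KPC and PyMT would recur in other tumors is unknown. With 931417 UMIs in PyMT venular cells, 3 counts make 3.22 CPM, the bound for a gene at 0.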

Other observations

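The PyMT gate held 8 cells with at least 40 UMIs of Glycam1, and the KPC gate held none, with 46 Glycam1 UMIs in 25 of its 7204 cells. These cells were picked after their values were seen. They carried 1788 of the 2127 Glycam1 UMIs of the PyMT gate, from 782 in the richest cell to 41 in the poorest. Only the richest was venular by the rule. The second, with 419 Glycam1 UMIs, had 2 UMIs of Ackr1 and Selp together, and the third, with 307, had 15 and was kept out by another limit. Several HEV genes were found in these cells. Ccl21a, whose product arrests T cells on HEVs, was present in 5 of the 8 at 33 to 97 UMIs, and in 17.8% of the other gated cells. Fut7, the fucosyltransferase of selectin ligands, was present in the same number of cells, 5, with 8 UMIs in all, and had 0 UMIs in the other 10344 gated cells. Chst4, the sulfotransferase of HEVs, had 10 UMIs in 3 of the 8 and 8 in all the others. Enpp2, encoding the lysophosphatidic acid producer autotaxin, was present in 6 of the 8 and in 1.91% of the others, and Ubd in 8 of the 8 and 4.21%. Prox1, which marks lymphatics, had 1 UMI in the 8 cells, and Csn3, a milk protein gene of mammary epithelium, had 0. Of the keratin genes, Krt8 had 5 UMIs in the 8 cells, all in the second cell, and Krt18 had 2 UMIs over 2 cells. The remaining 3 cells, with 82, 49 and 47 Glycam1 UMIs, had no Ccl21a, Fut7 or Chst4.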
